A study of Homo sapiens with 2 samples.

Results

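To ask how transporter genes other than the classical cholesterol exporters stood after treatment with an LXR agonist, the ABC (ATP-binding cassette) superfamily was examined in U87, a long-established line of human glioblastoma cells. LXR623 is a synthetic agonist of the liver X receptors, nuclear receptors that sense oxidised cholesterol. Total RNA of cells exposed for 24 h to LXR623 at 20 µM was hybridised to 1 array, and RNA of cells given 0.1% DMSO, the solvent, to another. Both cultures were kept in medium with 1.5% serum. The members were all genes on the array whose symbol is ABC, a subfamily letter from A to G and a number. ABCA1 and ABCG1, the classical LXR targets of the family, were left out. This gave 41 genes of 22458 named on the array. Of the members, 40 are annotated as protein-coding and 1, ABCC13, as a transcribed pseudogene. TAP1, TAP2 and CFTR belong to the family by descent but carry other symbols and are not counted. With n = 1 array per group there is no replicate check and no test, and every difference describes these 2 arrays. Differences are log2 LXR623 minus log2 DMSO. RNA came from whole cultures, so fewer cells making a transcript and less transcript per cell cannot be told apart.

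ABC proteins bind and hydrolyse ATP in paired nucleotide-binding domains, and most use this energy to move a substrate across a membrane. Subfamily A handles mainly lipids. Subfamily B holds drug pumps, bile transporters and transporters of mitochondria and lysosomes, and subfamily C exports conjugated anions or, in the sulfonylurea receptors, regulates potassium channels. Subfamily D serves peroxisomes and lysosomes. Subfamilies E and F have no membrane-spanning part and act on ribosomes and translation. Subfamily G moves sterols and drugs. In brain tumours the family is known for pumps that limit drug entry at the blood-brain barrier and in tumour cells.

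The arrays matched the U87 label in part. The cell culture note of the labels names HCT116, a colon carcinoma line, whereas the title, source and cell line labels name U87. Of 8 mesenchymal glioma line markers, 7 were matched, and all of these lay above the median level of all probe sets, from 7.04 to 12.46 over both arrays. Of 5 astrocyte markers, SLC1A3 lay above that median, and the defining marker GFAP stood at 4.76 (DMSO) and 4.68 (LXR623), below it. Of 8 colon epithelial markers, CDX2 and LGALS4 lay just above that median on the mean of both arrays, and the highest value of the list on any array was 5.43. The part of cell identity in the values below was not tested.

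The promoters of the members with the largest differences are shown first, as the DNA that the comparison is about. RefSeq windows of 250 bases before to 50 bases after a gene start (GRCh38.p14) were matched for 33 of the 41 members, 50 windows in all because some genes have several starts. Shown are ABCG8, ABCB1, ABCB10 and ABCE1, the 4 members with the largest absolute differences among those above a filter on dim probe sets, and ABCG5, which works with ABCG8. ABCG8 and ABCB1 passed that filter on their mean through the LXR623 value. ABCD2, with the largest difference of all 41 members, was left below it and is not shown. Capitals mark matches to the motifs named after the sequences.
ABCG8 (chr2:43838721-43839020, plus strand): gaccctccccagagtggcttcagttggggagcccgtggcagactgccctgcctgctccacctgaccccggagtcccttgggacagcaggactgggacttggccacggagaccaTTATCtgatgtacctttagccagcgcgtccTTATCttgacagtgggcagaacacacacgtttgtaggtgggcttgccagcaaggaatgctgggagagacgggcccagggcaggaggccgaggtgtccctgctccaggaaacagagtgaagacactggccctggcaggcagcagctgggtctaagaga
ABCG5 (chr2:43838790-43839089, minus strand): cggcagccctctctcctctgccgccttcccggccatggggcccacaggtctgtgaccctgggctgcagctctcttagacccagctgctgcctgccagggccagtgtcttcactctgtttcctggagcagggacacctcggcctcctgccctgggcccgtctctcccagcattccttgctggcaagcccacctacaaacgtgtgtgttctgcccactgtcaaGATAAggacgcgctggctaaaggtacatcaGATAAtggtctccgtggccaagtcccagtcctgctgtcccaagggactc
ABCB1 (chr7:87600835-87601134, minus strand): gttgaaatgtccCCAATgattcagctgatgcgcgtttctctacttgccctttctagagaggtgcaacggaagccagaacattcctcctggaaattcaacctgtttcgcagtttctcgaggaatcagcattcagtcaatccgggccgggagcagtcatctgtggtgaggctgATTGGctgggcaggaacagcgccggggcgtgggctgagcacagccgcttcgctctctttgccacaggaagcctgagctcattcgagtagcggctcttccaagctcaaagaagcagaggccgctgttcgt
ABCB10 (chr1:229558658-229558957, minus strand): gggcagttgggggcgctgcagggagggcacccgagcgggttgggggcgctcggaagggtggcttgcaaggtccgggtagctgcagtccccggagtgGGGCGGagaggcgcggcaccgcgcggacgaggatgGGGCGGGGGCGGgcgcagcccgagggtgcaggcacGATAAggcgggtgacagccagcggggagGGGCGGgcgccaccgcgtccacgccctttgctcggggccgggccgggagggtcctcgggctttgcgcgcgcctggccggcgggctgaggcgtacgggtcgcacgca
ABCE1 (chr4:145098061-145098360, plus strand): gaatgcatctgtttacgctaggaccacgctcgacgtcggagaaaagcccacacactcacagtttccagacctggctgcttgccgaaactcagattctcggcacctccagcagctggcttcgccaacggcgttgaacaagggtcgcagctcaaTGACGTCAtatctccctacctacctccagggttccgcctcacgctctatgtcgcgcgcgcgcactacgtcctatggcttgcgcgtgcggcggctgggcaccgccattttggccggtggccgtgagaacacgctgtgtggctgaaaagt

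ABCG5 and ABCG8 lie head to head, and 231 bases of their windows are the same DNA read from opposite strands. This shared stretch holds 2 GATA sites (GATAA, reverse TTATC). In the ABCG8 window these begin 137 and 107 bases before the start. A GATA site was present in 22.7% of all 35116 windows and in 12 of the 50 windows of members. Overlapping windows, such as those of ABCG5 and ABCG8, were each counted, so the 12 do not all hold separate sites. The ABCB1 window holds 2 CCAAT boxes (CCAAT, reverse ATTGG), 238 and 79 bases before the start, and the CCAAT box was found in 34.6% of all windows. The other ABCB1 window, at an upstream start, is not shown. ABCB10 has a GC-rich window (77.3% G or C) with 4 GC boxes (GGGCGG, reverse CCGCCC). At least 1 GC box was in 45.0% of all windows and in 24 of the 50 windows of members. The ABCE1 window holds the cAMP response element TGACGTCA, which reads the same on both strands, 98 bases before the start. It was the 1 member with this motif, which 1.85% of all windows hold. The direct repeat of AGGTCA with a spacer of 4 bases, a consensus of LXR binding, was in none of the members' windows. It was in 7 of all 35116 windows (0.0199%), so its absence from 50 windows says nothing about the members. Looser forms of it and DNA outside the windows were not searched. The single unit AGGTCA was in 3 windows of members and in 13.8% of all windows. The sterol regulatory element TCACNCCAC was in none of the members' windows and in 1.13% of all, and the C/EBP-ATF core TGATGNAA in 3 windows of members and in 3.62% of all. All motifs were searched on both strands. A match is a description of the letters and not a site of binding. The absence of a rare motif, such as the sterol regulatory element, from 50 windows is likewise no result about the members.

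The members as a whole differed little between the arrays. Dim genes were set aside by a filter on mean level at the lowest quartile of the array (log2 3.39), and this kept 29 of the 41 members and 16902 genes in all. Of the 29, 1 was at least 1.5-fold higher with LXR623, ABCG8, and none was at least 1.5-fold lower. ABCG8 fell short of 1.5-fold under either of the other scalings tried, which left 0 members past it. Among all genes kept, 2.38% were at least 1.5-fold higher, 2.01% lower and 4.38% past 1.5-fold in either direction, beside 3.45% of the members. That share is ABCG8 alone, which passed the filter on its mean through its LXR623 value (DMSO value 3.34). It therefore says little about the members. The median difference of the members was 0.06, beside 0.00 for all genes kept. Their median absolute difference was 0.16, and that of all genes kept was 0.16 as well. Within 1.3-fold lay 25 of the 29 members (86.2%), beside 85.3% of all genes kept. The 4 members beyond it were ABCG8 and ABCB1 on the higher side and ABCB10 and ABCE1 on the lower side. None of the 29 lay outside the central 95% of the 500 genes nearest in mean level, a range that 5.24% of all genes kept lay outside. By contrast ABCA1, left out by the rule, stood at 8.30 in DMSO and 10.09 with LXR623, outside that range. ABCG1, also left out, stood at 3.75 and 4.14, a difference of 0.38 that lay inside it.

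**Figure D1:**
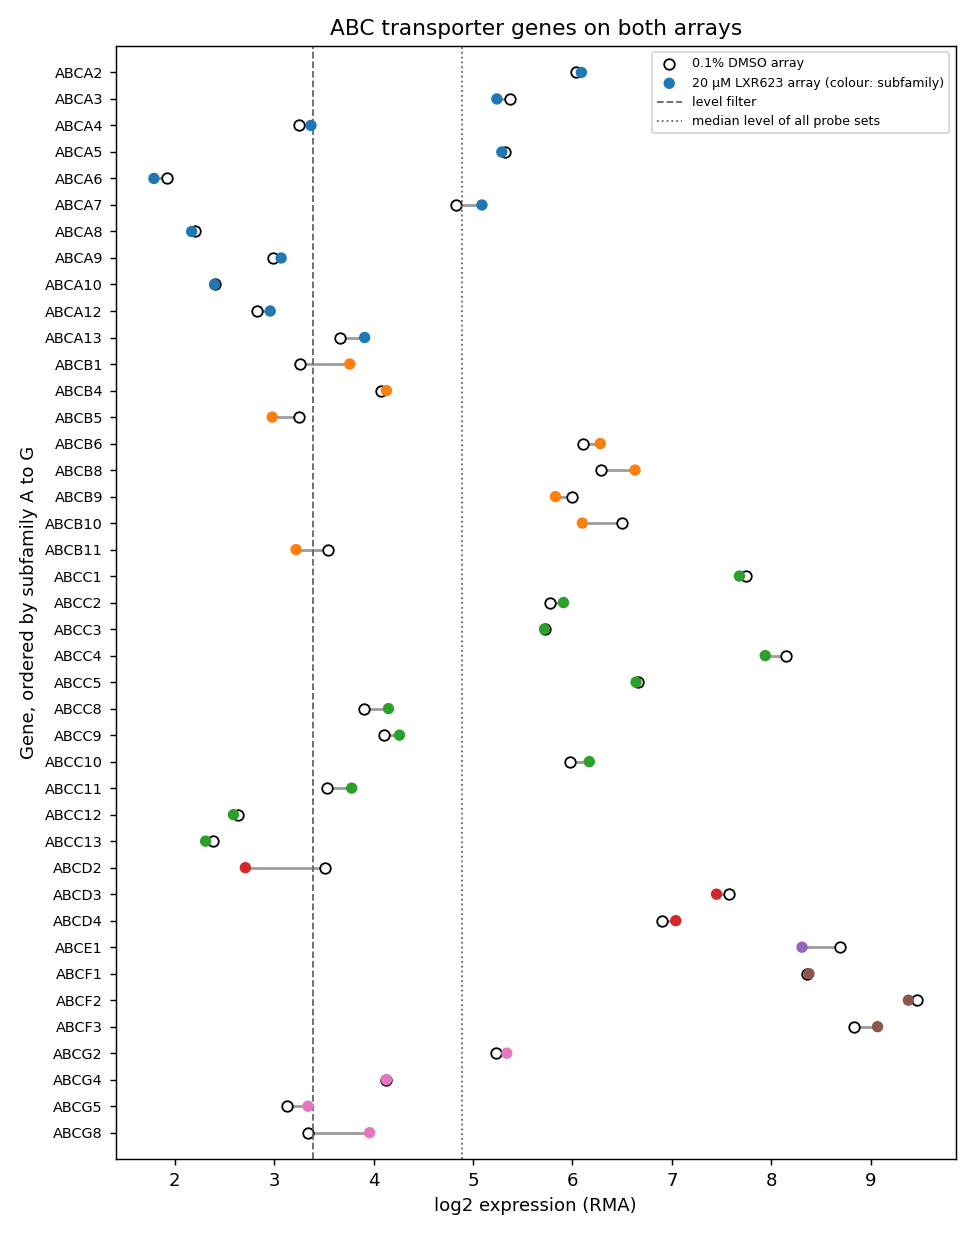
Log2 expression (x axis) of the 41 ABC transporter genes (y axis) on the DMSO array (open circles) and the LXR623 array (filled circles, coloured by subfamily). Lines mark the level filter (3.39, dashed) and the median level of all probe sets (4.89, dotted). Most pairs of circles lie close together, and the widest gaps belong to ABCD2, ABCG8 and ABCB1, which are dim.

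By level, 21 members reached the median level of all probe sets, 8 lay between that median and the filter, and 12 lay below the filter. Probe sets differ in how well they bind, so these are array levels and not amounts of transcript. All members of subfamilies E and F lay above the median, with mean levels from 8.37 to 9.42. In subfamily A, 5 of 11 members passed the filter, and the mean levels ran from 1.86 to 6.06. Of subfamily B 6 of 8 passed, of subfamily C 9 of 11, of subfamily D 2 of 3 and of subfamily G 3 of 4. The direction of the differences did not follow level across the members. Above the median 10 were higher with LXR623 and 11 lower, from -0.40 to 0.33 (median 0.00). All 8 members between the filter and the median were higher, by 0.01 to 0.62, whereas of the 12 members below the filter 4 were higher, 7 lower and 1 equal. The filter itself shaped this contrast. ABCG8 and ABCB1, which hold the 2 largest differences of the 8, passed on their mean through the LXR623 value while their DMSO value was under the filter's level, and ABCD2 and ABCB11, whose DMSO value alone reached that level, were left below it. Of all 5537 genes between the filter and the median 55.3% were higher, with a median of 0.05, and of the 11365 genes above the median 45.6% were higher, with a median of -0.02. Of the 8 members in that range, ABCG4 (0.01) turned to -0.03 when each array was centred on its own median and to -0.05 when a smooth curve of the difference on level was removed.

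**Figure D2:**
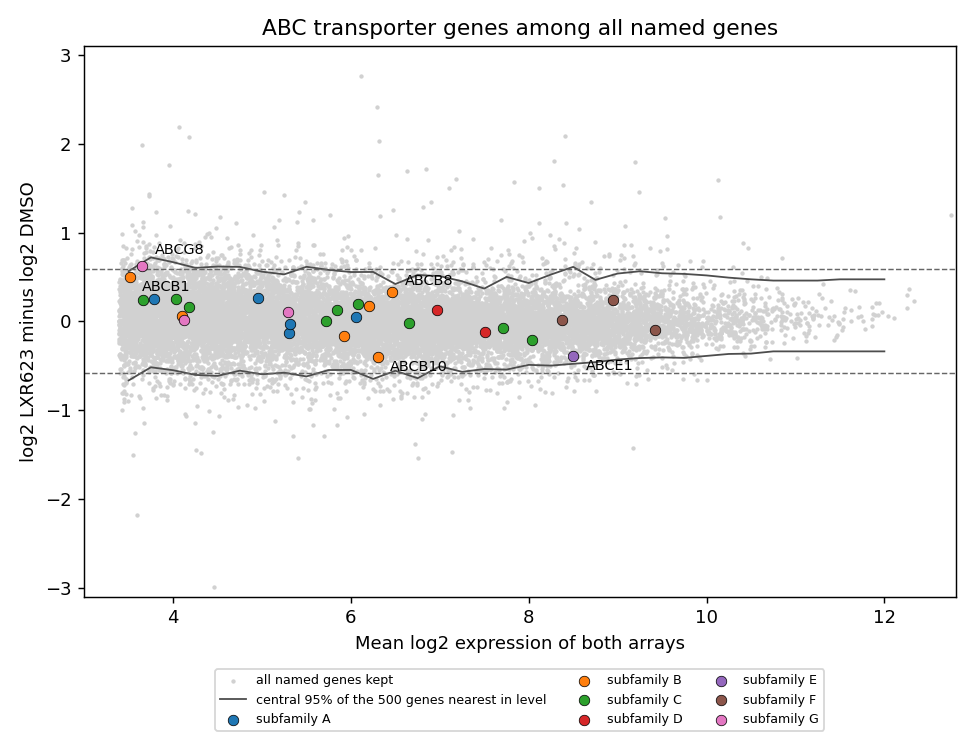
Difference between the arrays (y axis, log2 LXR623 minus log2 DMSO) against mean log2 expression (x axis) for all 16902 named genes kept (grey) and the 29 ABC members kept (coloured by subfamily). Solid lines give the central 95% of the 500 genes nearest in level and dashed lines 1.5-fold. All coloured points lie within the range computed at their own level, and ABCG8 is the 1 member past the dashed line.

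Among the sterol transporters of subfamily G, ABCG8 had the largest difference of any member kept. ABCG5 and ABCG8 form a heterodimer that pumps cholesterol and plant sterols into bile and gut, and both are known LXR targets in liver and intestine. ABCG8 stood at 3.34 in DMSO and 3.96 with LXR623, 1.54-fold higher (0.62, rank 326 from the highest among all genes kept). Its DMSO value was under the filter's level, so the size of the difference is uncertain. Centring of both arrays on their medians gave 0.58 and with the smooth curve removed 0.56, both short of 1.5-fold. ABCG5 stood at 3.13 and 3.34, a difference of 0.21, and neither value reached the filter. Both genes of the pair shown above were thus dim and higher on the LXR623 array. ABCG4, a neuronal relative of the sterol exporter ABCG1, stood at 4.12 and 4.13. ABCG2, the breast cancer resistance protein, a drug pump of the blood-brain barrier, stood at 5.23 and 5.34, a difference of 0.10. The 3 kept genes of subfamily G had a median of 0.10.

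Subfamily A, the relatives of ABCA1, showed no difference past 1.5-fold. Its 5 kept members had a median of 0.05 and ran from -0.13 to 0.26. ABCA7, a phospholipid transporter close to ABCA1 in sequence, stood at 4.83 in DMSO and 5.09 with LXR623, a difference of 0.26. ABCA13, the longest protein of the subfamily, stood at 3.66 and 3.91, a difference of 0.25. These were the higher end of the subfamily. ABCA2, a lipid transporter of endosomes and lysosomes in the nervous system, stood at 6.04 and 6.09. ABCA3, which loads lung surfactant lipids into lamellar bodies, stood at 5.37 and 5.24, a difference of -0.13. ABCA5 stood at 5.32 and 5.29, a difference of -0.03. The remaining 6 members of the subfamily were below the filter. They were ABCA4, the retinal transporter of photoreceptors (3.25 and 3.37), ABCA12, which loads skin lipids (2.83 and 2.96), and the adjacent genes ABCA6, ABCA8, ABCA9 and ABCA10. On chromosome 17, ABCA8, ABCA9, ABCA6, ABCA10 and ABCA5 follow each other with no other coding gene starting between them. Of these 5 neighbours ABCA5 passed the filter, and the other members of the row were listed between 1.79 and 3.07 over both arrays. ABCA10 had the same value on both, 2.40. These neighbours are similar in sequence, and whether their probes tell them apart was not tested.

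**Figure D3:**
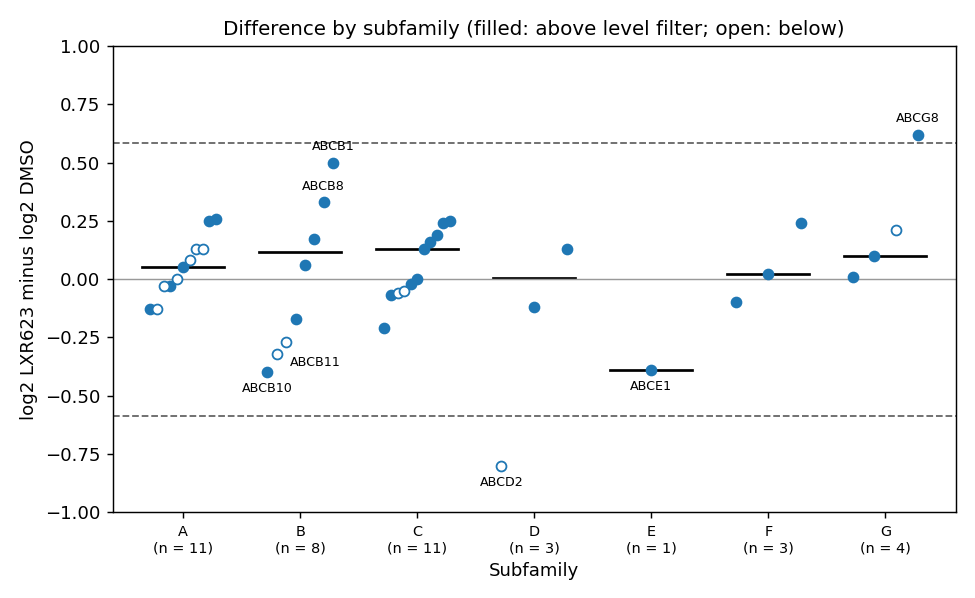
Difference between the arrays (y axis, log2 LXR623 minus log2 DMSO) for each member, by subfamily (x axis, n is the number of members). Filled points passed the level filter, open points did not, bars are medians of the filled points and dashed lines mark 1.5-fold. Subfamily B had the widest spread of filled points, from -0.40 to 0.50. The upper end is ABCB1, which passed the filter on its mean through its LXR623 value. ABCD2, an open point, is the lowest value.

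Subfamily B had the widest spread among its kept members, from -0.40 to 0.50, with a median of 0.11 over 6 genes. The upper end was ABCB1, which passed the filter on its mean through its LXR623 value, and the next highest was ABCB8 (0.33). The median was 0.061 without ABCB1 and -0.055 with no filter, so spread and median depend on dim members. ABCB1 (P-glycoprotein), the multidrug pump of the blood-brain barrier, stood at 3.26 in DMSO and 3.76 with LXR623, 1.41-fold higher (0.50). Its DMSO value was under the filter's level, and 95.4% of the 500 genes nearest in level had a difference no larger. Its neighbour on chromosome 7, ABCB4, which moves phosphatidylcholine into bile, stood at 4.07 and 4.13, a difference of 0.06. The adjacent and similar genes thus did not show the same size of difference. ABCB10 and ABCB8, both of the mitochondrial inner membrane, lay on opposite sides of 0. ABCB10, which is needed for haem synthesis in red cell precursors, stood at 6.50 and 6.10, 1.32-fold lower (-0.40). ABCB8 stood at 6.29 and 6.63, 1.26-fold higher (0.33). ABCB6, a porphyrin transporter, stood at 6.11 and 6.28, a difference of 0.17. ABCB9, a lysosomal peptide transporter, stood at 6.00 and 5.83, a difference of -0.17. Below the filter were ABCB11, the bile salt export pump, at 3.54 and 3.22, and ABCB5, a marker of melanoma subpopulations, at 3.25 and 2.98. ABCB11, with a mean of 3.38, was the member closest below the filter. ABCB10 has pseudogenes in the genome, and its single value is uncertain.

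Subfamily C, mainly exporters of drugs and conjugates, kept 9 members with a median of 0.13, all within 1.3-fold and from -0.21 to 0.25. ABCC4, which exports cyclic nucleotides and prostaglandins, stood at 8.15 in DMSO and 7.94 with LXR623, a difference of -0.21. ABCC1, an exporter of glutathione conjugates, stood at 7.75 and 7.68. ABCC5, an exporter of cyclic nucleotides, stood at 6.66 and 6.64. These 3, the brightest of the subfamily, were all slightly lower, although ABCC5 turned to 0.01 when the smooth curve on level was removed. ABCC10 stood at 5.98 and 6.17, a difference of 0.19, and ABCC2, an exporter of conjugated bilirubin in liver, at 5.77 and 5.91, a difference of 0.13. ABCC3, a basolateral relative of ABCC2, stood at 5.72 on both arrays. The sulfonylurea receptors, regulatory subunits of ATP-sensitive potassium channels, were dim on both arrays. ABCC8 stood at 3.90 and 4.15, a difference of 0.25, and ABCC9 at 4.10 and 4.26, a difference of 0.16. ABCC11, the earwax-type gene, stood at 3.53 and 3.78, a difference of 0.24, and its neighbour on chromosome 16, ABCC12, at 2.64 and 2.59, below the filter. ABCC13, the pseudogene, stood at 2.38 and 2.31, also below it.

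Subfamily D had 3 named members. ABCD3, which carries branched acyl chains into peroxisomes, stood at 7.58 in DMSO and 7.45 with LXR623, a difference of -0.12. ABCD4, which exports cobalamin from lysosomes, stood at 6.90 and 7.04, a difference of 0.13. ABCD2, which carries very long acyl chains into peroxisomes, was listed at 3.51 and 2.71, 1.74-fold lower (-0.80). This was the largest difference of any of the 41 members, but its mean lay below the filter and its LXR623 value far below it, so the size is uncertain. Of all 5556 named genes below the filter, 2.32% were at least 1.5-fold lower. The other 11 members below the filter ran from -0.32 to 0.21.

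The soluble members of subfamilies E and F were among the brightest probe sets of the family. ABCE1, which splits ribosomes after termination, stood at 8.69 in DMSO and 8.31 with LXR623, 1.31-fold lower (-0.39). Of the 500 genes nearest in level, 5.60% had a difference as low or lower. ABCE1 has pseudogenes, and its value is uncertain on that account. ABCF1, which binds the initiation factor that delivers initiator tRNA, stood at 8.36 and 8.38. ABCF2 stood at 9.47 and 9.38, a difference of -0.10, and it too has pseudogenes. ABCF3, the human relative of the yeast translation factor Gcn20, stood at 8.83 and 9.07, a difference of 0.24. The direction was therefore mixed, with ABCE1 and ABCF2 lower and ABCF1 and ABCF3 higher, and ABCF1 (0.02) turned to -0.02 with median centring.

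Grouped by role, the picture was similar. The lipid handling group kept 7 of 13 members with a median of 0.05, and the drug and conjugate efflux group kept 9 of 10 with a median of 0.10. None of these 16 was past 1.5-fold. The 3 mitochondrial and haem-related genes had a median of 0.17, the 2 channel regulators 0.21, the 2 lysosomal genes -0.02 and the 4 soluble translation factors -0.04. The bile acid and sterol group kept ABCG8 alone of 3 members, and the peroxisomal group ABCD3 alone of 2. ABCB5 and ABCC13 were in no role list.

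**Figure D4:**
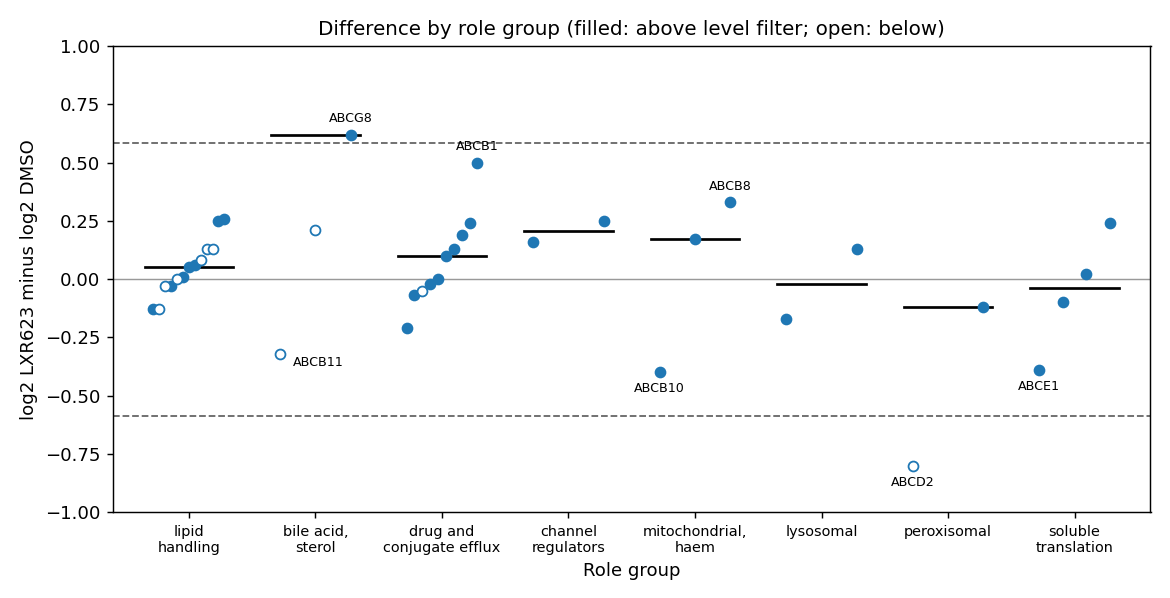
Difference between the arrays (y axis, log2 LXR623 minus log2 DMSO) for the 39 members with an assigned role (x axis, role group). Filled points passed the level filter, open points did not, bars are medians of the filled points and dashed lines mark 1.5-fold. Filled points of the lipid handling group lie between -0.13 and 0.26.

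Genes whose products work with or regulate the transporters were counted beside them. The list also held ABCA1, ABCG1, TAP1, TAP2 and CFTR, which are family genes left out of the members. Of 24 listed, 22 were matched and 20 kept, and NR1H2 (LXRβ) and NR1I2 were not matched. At least 1.5-fold higher was 1, the family gene ABCA1 and so no partner or regulator from outside the family, and 0 were at least 1.5-fold lower. Among all genes kept these shares were 2.38% and 2.01%. The median of the 20, family genes included, was 0.00, and the lowest differences were those of APOA1 (-0.40) and AHR (-0.29). KCNJ11, the pore subunit that pairs with ABCC8, stood at 3.83 in DMSO and 4.30 with LXR623, a difference of 0.47. KCNJ8, the pore subunit that pairs with ABCC9, stood at 3.85 and 3.88. The pore partners thus differed in the size of their difference although both receptors were a little higher. GCN1, a partner of Gcn20 in yeast, stood at 8.08 and 8.50, a difference of 0.42. PELO, which works with ABCE1 on stalled ribosomes, stood at 8.20 and 8.43, a difference of 0.23, and its partner HBS1L at 8.56 and 8.47, a difference of -0.09. ABCE1 and PELO therefore lay on opposite sides of 0. PEX19, the import receptor for peroxisomal ABC proteins, stood at 7.83 and 7.77, and LMBRD1, which works with ABCD4, at 6.45 and 6.26.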

How the data were processed

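Per the labels, the authors extracted total RNA with a column kit, used a whole-transcript kit for biotin labelling and hybridised the product to Affymetrix arrays, 1 per condition. The deposited values, in log2 units per probe set, were made by the authors with RMA (background correction, quantile normalisation and median polish) using the affy package 1.36.1 in R 2.15.1. RMA compresses differences of dim probe sets, and quantile normalisation removes shifts shared by most genes. The array model and build are not given in the sources used here.

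Each probe set stands for 1 gene. Of 23786 sets, 22458 had 1 symbol, none had several and 1328 were unnamed here. Array medians were 4.88 (DMSO) and 4.92 (LXR623). Differences were computed per gene, and no p-value was computed. The level filter was the 25th percentile of mean level. Members, lists and motifs were chosen with earlier results of these data known. Named were members past 1.5-fold, up to 4 kept members per subfamily by absolute difference, and all others for completeness. The partner genes named other than ABCA1, the motifs and the promoters shown were chosen after values were seen. Of the symbols in the role lists, 3 were not matched. Alternatives were median centring, removal of a lowess curve (span 0.3), no filter, the 50th percentile, a 2-fold threshold, the mean, leaving out identical values or the most extreme member, and other memberships. The method was also run on simulated data, which have no bearing on single values of these arrays. Whether a difference near 1.5-fold, such as that of ABCG8, would recur on other arrays was not tested. The number of arrays limits the precision. Python 3.11.15, numpy 2.4.6, pandas 2.3.3, statsmodels 0.14.6 and matplotlib 3.10.9 were used.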

Additional observations from a re-analysis of the deposited data

How the results depend on the processing

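Of 199 values of counts and medians under alternatives, 178 stayed close to the reported value and 21 moved. None changed the direction of a difference past 1.5-fold. Some values could not move, such as those of subfamilies E and F under other filters, since all their members lay above the median level. The 178 is therefore no measure of stability. The count of members at least 1.5-fold higher (1, ABCG8) was 0 with median centring, with the lowess curve removed, with the filter at the 50th percentile and with a 2-fold threshold, and 2 with ABCA1 and ABCG1 included. The same held for subfamily G, whose count went from 1 to 0 with both scalings and the stricter filter. Without a filter 1 member, ABCD2, was at least 1.5-fold lower, in the family and in subfamily D. With the stricter filter the median of the family was -0.001, that of subfamily C -0.010 and that of drug and conjugate efflux -0.001, since the dimmer members were gone. Without a filter subfamily B was at -0.055, subfamily C at -0.001, the bile acid and sterol group at 0.211 and the peroxisomal group at -0.462, as dim members entered. Over all genes the stricter filter left 218 higher and 218 lower, and the 2-fold threshold 57 and 28. A median counted as moved beyond the SD of single genes at like level over the square root of the number kept, and counts beyond 1.5 times. None of the 82 values of single members under the 2 scalings moved by more than the SD of single genes, and 4 members near 0 changed sign or left 0. No paired analysis was possible because there was only 1 array per condition. Dim probe sets limit what is resolved, and no background signal was used here.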

Other observations

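The coding members of the family by descent that carry other symbols were also close between the arrays. TAP1 and TAP2, which form the peptide transporter of antigen presentation, stood at 6.84 and 6.45 in DMSO and at 6.89 and 6.47 with LXR623. CFTR, a chloride channel, was listed at 3.20 and 3.17, below the level filter. Among related non-coding genes, the pseudogene ABCA15P stood at 4.88 and 4.79, while the pseudogene ABCA17P and the antisense gene ABCC5-AS1 were below the filter, with differences of 0.14 and -0.14. The pseudogene ABCC6P2 stood apart from these, at 6.31 in DMSO and 5.45 with LXR623, 1.81-fold lower (-0.86). It was singled out after its value was seen, and whether its probes also bind transcripts of related genes was not tested.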
